A study of Mus musculus with 6 samples.

Results

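The transcripts described here encode the FOS and JUN subunits of AP-1, a transcription factor that binds DNA as a pair of subunits. The 7 genes were chosen by symbol from the 54232 genes measured, and are Fos, Fosb, Fosl1 and Fosl2 of the FOS family and Jun, Junb and Jund of the JUN family. All 7 passed the filter on low values (10 or more normalized counts on average over the libraries), as did 13875 genes in all. The RNA came from cardiomyocytes of adult male mice carrying UtyGt(XS0378)Wtsi, a gene trap in the fourth intron of the Y-linked gene Uty (UtyGT), or from isogenic wild type males (WT), with 3 libraries per strain. The trapped Y chromosome came from 129P2/OlaHsd embryonic stem cells and the WT one from 129P2/OlaHsd males, and both strains were backcrossed to C57BL/6J. The trap is carried by every cell and was present throughout life, so that neither the tissue nor the age at which it acts is restricted, and ages are not given beyond adult.

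Cells were freed by perfusing hearts with collagenase, collected by sedimentation under gravity while calcium was returned in steps, plated on laminin and lysed 4 h later, each strain being isolated 3 times. Labels call the RNA both total and cytoplasmic. Replicates are named by the letters of the labels, e, f and g for WT and d, e and f for UtyGT, and nothing in the sources used here says whether isolations of both strains shared a day. Fos and some of its relatives are immediate early genes, which are known to respond to tissue digestion and plating. All 6 libraries were digested and plated, so the levels below are those of plated cells, and any difference in handling between the isolations of the strains cannot be told apart from the strain.

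Libraries held 28283654 to 48377453 reads assigned to genes. Uty itself had 877 to 1093 normalized counts (reads divided by a factor for library size) in WT and 8.03 to 13.9 in UtyGT, as labelled. Of its neighbours on the Y chromosome, Ddx3y fell from 2276 ± 80.7 to 298 ± 127 and Eif2s3y rose from 165 ± 7.34 to 707 ± 121 (SD, n = 3), so the trap strain differs in these genes too. UtyGT f stood apart in the number of genes with a read (28619 against 21615 to 22917 in the other libraries). UtyGT e and f stood apart in the summed level of atrial markers (10039 and 6201 normalized counts against 914 to 1148 in the other libraries). Values without these libraries are given beside the results.

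In cells, FOS proteins do not pair with each other and bind DNA mainly with a JUN partner, whereas JUN proteins can also pair among themselves. The pairs bind the sequence TGACTCA and its close relatives. The Fos and Fosb proteins carry strong activation domains and their genes are switched on within minutes by growth factors, stretch, calcium and stress, while Fosl1 and Fosl2 lack those domains and follow later. Jun is activated by phosphorylation through the JNK kinases, Junb is often a weaker activator than Jun, and Jund is a more evenly expressed subunit. In the heart, AP-1 genes are classical early responders to hypertrophic agonists and mechanical load.

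The stretches just upstream of Fos, Fosb and Jun are shown because these genes had the 3 smallest p-values among the 7. They are the 200 bases before the RefSeq start site on GRCm38.p6, read along the gene's strand, with matches to searched motifs in capitals. The Fos window lies at chr12:85473690-85473889 on the plus strand, that of Fosb at chr7:19310046-19310245 on the minus strand and that of Jun at chr4:95052223-95052422 on the minus strand.
Fos: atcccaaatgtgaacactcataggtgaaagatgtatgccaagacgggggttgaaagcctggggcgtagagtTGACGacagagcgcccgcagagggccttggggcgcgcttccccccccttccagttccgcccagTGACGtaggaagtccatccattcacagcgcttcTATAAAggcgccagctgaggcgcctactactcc
Fosb: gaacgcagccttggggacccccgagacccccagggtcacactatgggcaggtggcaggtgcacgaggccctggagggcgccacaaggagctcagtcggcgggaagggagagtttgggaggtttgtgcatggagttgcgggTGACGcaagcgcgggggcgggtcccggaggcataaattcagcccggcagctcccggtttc
Jun: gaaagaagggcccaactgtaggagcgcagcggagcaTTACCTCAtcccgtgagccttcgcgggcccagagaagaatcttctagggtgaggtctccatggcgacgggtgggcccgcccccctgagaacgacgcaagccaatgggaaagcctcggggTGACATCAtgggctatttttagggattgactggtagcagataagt
Motifs were searched on both strands. In Fos, the capitals mark TGACG, the core of the site for CREB and ATF proteins, at 129 to 125 and at 66 to 62 bases before the start, and the TATA box motif TATAAA at 33 to 28 bases. In Fosb, TGACG stood at 60 to 56 bases. In Jun, TTACCTCA stood at 164 to 157 bases and TGACATCA at 45 to 38 bases, both relatives of the AP-1 site known from the JUN promoter. Of 32851 RefSeq windows of this length in the mouse, 15.7% held TGACG, 9.96% TATAAA, 2.66% TGACATCA and 0.594% TTACCTCA. TGACTCA or its reverse complement TGAGTCA (3.66% of windows), TGACGTCA (1.47%) and the CArG box bound by SRF (1.18%) were not found in these 3 windows. Of the other subunits with an entry, Junb held TGACG at 106 to 102 bases, and the windows of Fosl2 and Jund held none of the motifs, but the RefSeq start behind those windows lies 671 and 1210 bases from the GENCODE start of the gene. These matches describe letters and not occupied sites, and bases farther upstream, where a motif may also lie, were not searched.

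Transcripts of 5 subunits were more abundant in UtyGT cells, Fosl2 was less abundant, and Junb did not pass the test. Fosb and Fos rose most, to 245% and 231% of WT, followed by Fosl1 at 186%, Jun at 158% and Jund at 126%, whereas Fosl2 fell to 84.3%. Of the 13875 genes tested, 4.55% rose and 6.12% fell. The test was limma on log2(normalized count + 1), with Benjamini-Hochberg adjusted p-values over all tested genes and a threshold of 0.05. Fold changes below are UtyGT over WT on that log2 scale. No library of one strain overlapped the other for any of the 7 genes, 6 being higher and 1 lower, where 14.2% of all genes lay wholly higher and 17.7% wholly lower, 31.9% in all. In either direction, 10.7% of genes passed the test. On the recovered reads, edgeR and DESeq2 each called the same 5 subunits higher and Fosl2 lower, with 5.26% and 4.41% of genes called higher and 5.85% and 6.34% lower. With limma's variance moderated without its trend, 3 subunits rose (Fos, Fosb and Fosl1) and 0 fell. Of all genes, 0.548% rose and 0.505% fell in that fit.

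**Figure D1:**
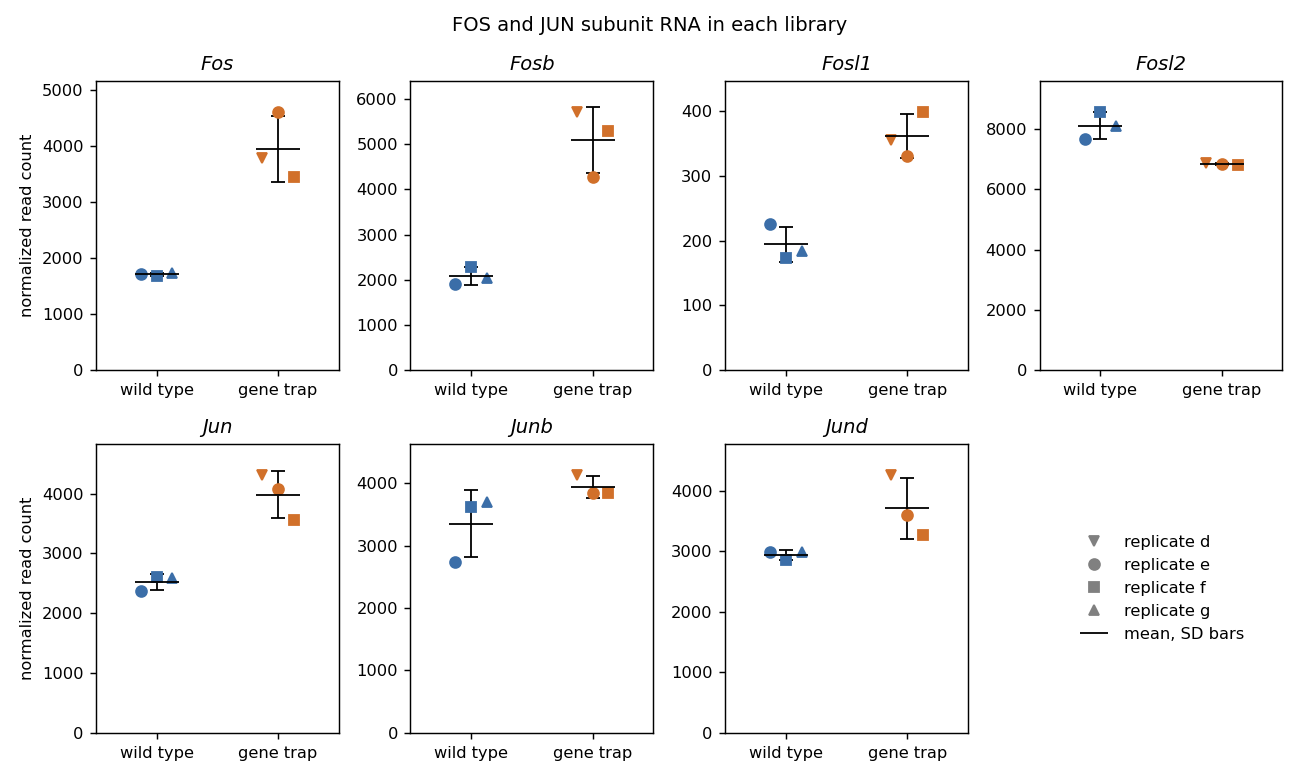
Normalized read count (vertical axes, from 0) of each subunit in the 3 WT and 3 UtyGT libraries, with 1 symbol per replicate letter and bars for the mean and SD. The strains do not overlap in any panel; Fosl2 is the panel in which UtyGT libraries lie below, and they cluster between 6794 and 6874.

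Fos (chr12:85473890-85477273, plus strand), the founding member of the family, had 1709, 1678 and 1742 normalized counts in WT replicates e, f and g. It had 3777, 4606 and 3455 in UtyGT replicates d, e and f. The WT libraries were almost level, with a coefficient of variation of 1.87% against 15.0% in UtyGT, and the lowest UtyGT library was well above every WT library. The mean rose from 1709 ± 32.0 to 3946 ± 594 (SD, n = 3 per strain), a log2 fold change of 1.20 ± 0.09 (SE, 95% interval 0.996 to 1.40, limma adjusted p = 2.37e-05). Fos ranked 11 among all tested genes by p and 103 by size of rise.

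Fosb (chr7:19302696-19310051, minus strand), a close relative of Fos that also gives a truncated form lacking the activation domain, had 1906, 2292 and 2047 normalized counts in WT e, f and g. It had 5713, 4283 and 5284 in UtyGT d, e and f. Its mean went from 2082 ± 195 to 5093 ± 734 (SD, n = 3), with a log2 fold change of 1.28 ± 0.10 (SE, 95% interval 1.06 to 1.51, limma adjusted p = 2.87e-05). Fosb had the largest log2 fold change of the 7 subunits, though its interval overlaps widely with that of Fos. The order of UtyGT libraries was not shared by both genes, since UtyGT e had the highest Fos and the lowest Fosb. Counts per gene do not separate full-length from truncated Fosb transcripts.

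Fosl1 (chr19:5447547-5455946, plus strand), which encodes FRA-1, was the least abundant subunit, with 225, 174 and 183 normalized counts in WT e, f and g. UtyGT d, e and f had 355, 330 and 398. Its mean rose from 194 ± 27.4 to 361 ± 34.4 (SD, n = 3), with a log2 fold change of 0.90 ± 0.12 (SE, 95% interval 0.63 to 1.17, limma adjusted p = 0.00134). These values rest on 139 to 537 reads per library, and the 95% Poisson interval of a single library was 8.55% to 17.0% of its count to either side. This counting error was smaller than the distance between the strains.

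Fosl2 (chr5:32135801-32157842, plus strand), which encodes FRA-2, was the one subunit that fell. It had 7680, 8564 and 8084 normalized counts in WT e, f and g and 6874, 6851 and 6794 in UtyGT d, e and f. The 3 UtyGT libraries were nearly identical, with a coefficient of variation of 0.599% against 5.45% in WT. Its mean went from 8109 ± 442 to 6840 ± 41.0 (SD, n = 3), a log2 fold change of -0.24 ± 0.06 (SE, 95% interval -0.38 to -0.11, limma adjusted p = 0.0300). The call was near the threshold and was lost without WT e, f or g or without UtyGT d, with adjusted p between 0.0581 and 0.158. Over all genes, falls went from 849 to 244, 233, 642 and 370 in these fits. The estimate stayed between -0.28 and -0.20 when each library was left out in turn.

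Jun (chr4:95049034-95052222, minus strand), the partner through which FOS proteins are classically described, had 2377, 2607 and 2583 normalized counts in WT e, f and g. It had 4314, 4077 and 3554 in UtyGT d, e and f, all above the WT libraries. The mean rose from 2522 ± 126 to 3982 ± 389 (SD, n = 3), with a log2 fold change of 0.65 ± 0.08 (SE, 95% interval 0.48 to 0.83, limma adjusted p = 0.000633). Jun was the JUN family gene with the largest rise, and its interval does not reach those of Fos and Fosb.

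Junb (chr8:84974484-84978718, minus strand) had 2735, 3625 and 3690 normalized counts in WT e, f and g and 4134, 3841 and 3835 in UtyGT d, e and f. WT e stood below the other WT libraries, which lay just below the lowest UtyGT library. The mean was 3350 ± 533 in WT and 3937 ± 171 in UtyGT (SD, n = 3), with a log2 fold change of 0.25 ± 0.10 (SE, 95% interval 0.03 to 0.46) that did not pass the test (limma adjusted p = 0.136). Without WT e the estimate was 0.11 (adjusted p = 0.448).

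Jund (chr8:70698949-70700616, plus strand) had 2981, 2847 and 2981 normalized counts in WT e, f and g and 4263, 3592 and 3268 in UtyGT d, e and f. The WT libraries were level and the UtyGT libraries spread upwards from just above them, with UtyGT d the highest. The mean rose from 2936 ± 77.5 to 3707 ± 507 (SD, n = 3), with a log2 fold change of 0.33 ± 0.09 (SE, 95% interval 0.14 to 0.52, limma adjusted p = 0.0349). This call was lost without WT e, f or g or without UtyGT d (adjusted p between 0.0735 and 0.137), and without UtyGT d the estimate was 0.22. Over all genes, rises went from 632 to 167, 196, 472 and 279 in these fits.

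**Figure D2:**
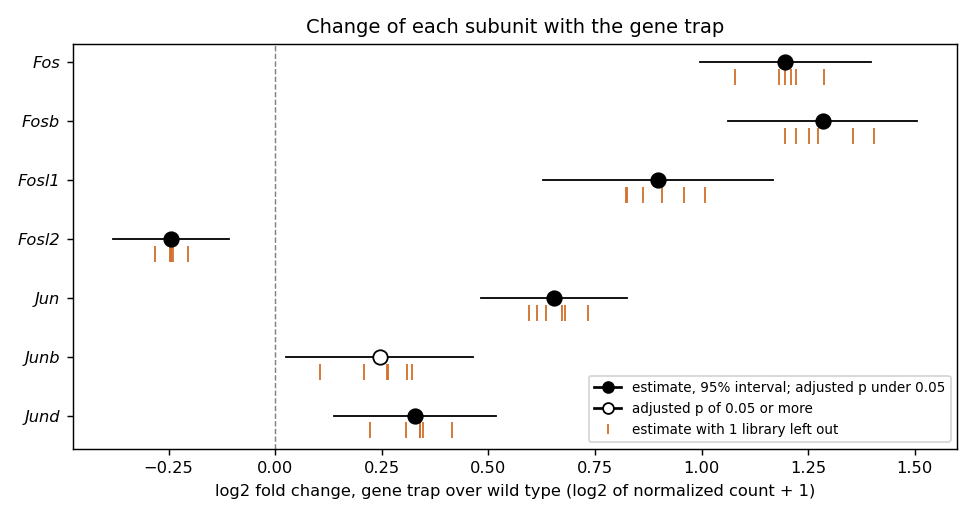
Log2 fold change of each subunit, UtyGT over WT (horizontal axis), as the limma estimate with its 95% interval (filled where the adjusted p is under 0.05) and, as orange ticks, the estimates with 1 library left out. Fos, Fosb and Fosl1 lie at 0.90 or more, Jun at 0.65, Jund and Junb at 0.33 and 0.25, and Fosl2 at -0.24.

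From the highest to the lowest log2 fold change, the order was Fosb, Fos, Fosl1, Jun, Jund, Junb and Fosl2. The intervals of neighbours in this order overlap except between Junb and Fosl2. Over the 6 libraries, Fos and Jun had a Pearson correlation of 0.97, Fos and Fosb one of 0.92, and Fosl1 and Fosl2 one of -0.98. These values describe points that also differ by strain, and carry no test.

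Levels of different genes were compared per kilobase of exon (GENCODE M21). In WT cells the order from high to low was Jund, Junb, Fosl2, Jun, Fos, Fosb and Fosl1, at 1760, 1456, 838, 791, 727, 333 and 95.5 normalized counts per kilobase. Every WT library of Junb (1189 to 1604) was below every one of Jund (1707 to 1787), whereas Fosl2 (793 to 885) and Jun (745 to 817) overlapped, and Fos (713 to 740) lay just below Jun. In UtyGT cells Jund stayed first at 2223 ± 304, and Junb at 1711 ± 74.2 and Fos at 1678 ± 252 could not be ordered within their spread. Fosl2 at 707 ± 4.23 (SD, n = 3) and Fosb at 816 ± 118 could not be ordered either, since Fosb was above Fosl2 in UtyGT d and f and below it in UtyGT e (686 and 708). Among the 13875 genes tested, 7.53% had a higher mean per kilobase than Fos in WT and 3.20% in UtyGT, whereas for Fosl1 these shares were 40.8% and 27.1%.

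Summed over the 7 genes, the level was 6000 ± 298 normalized counts per kilobase in WT and 8560 ± 581 in UtyGT (SD, n = 3), and the libraries did not overlap (5657 to 6194 against 7953 to 9111). The FOS family made up 33.2% ± 1.02 of this sum in WT and 39.5% ± 1.87 in UtyGT, a shift that depends on the division by exon length. Within it, the share of Fos went from 12.1% ± 0.641 to 19.6% ± 2.74 and that of Fosb from 5.55% ± 0.364 to 9.55% ± 1.41, while Fosl2 went from 14.0% ± 0.455 to 8.28% ± 0.518. In the JUN family, the share of Jun went from 13.2% ± 0.109 to 14.6% ± 0.480 without overlap, and the shares of Junb and Jund were 24.2% and 29.4% in WT and 20.0% and 25.9% in UtyGT. These are shares of RNA and say nothing of the amounts of protein or of pairs formed.

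**Figure D3:**
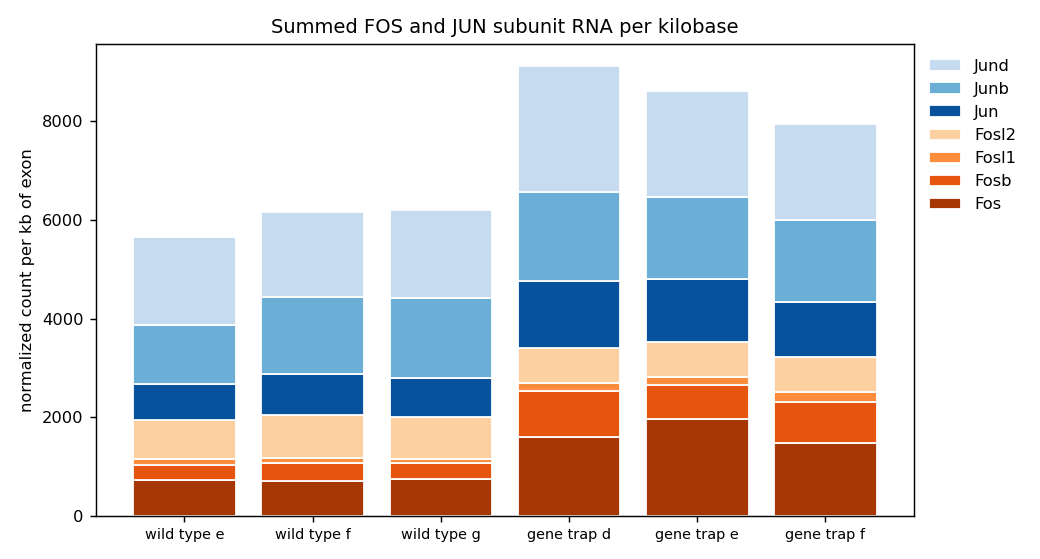
Normalized count per kilobase of exon (vertical axis, from 0) of the 7 subunits stacked for each of the 6 libraries, FOS family in orange below and JUN family in blue above. The 3 UtyGT columns reach 7953 to 9111 against 5657 to 6194 in WT, and the Fos and Fosb segments at the base are taller in each of them.

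Ratios within a library do not depend on its size factor. The log2 ratio of Fos to Fosl2, per kilobase, was -0.13, -0.31 and -0.17 in WT e, f and g and 1.18, 1.47 and 1.07 in UtyGT d, e and f. Per kilobase, Fos was thus below Fosl2 in every WT library and above it in every UtyGT library, a difference of 1.44. This switch of sides depends on the division by exon length. On counts not divided by length, Fos was below Fosl2 in every library of both strains (3455 to 4606 against 6794 to 6874 in UtyGT), as was Fosb. The log2 ratio of Fosb to Fosl2 was -1.38, -1.27 and -1.35 in WT and 0.37, -0.04 and 0.27 in UtyGT, a difference of 1.53. The ratio of Jun to Jund moved less, from a mean of -1.16 ± 0.10 to -0.83 ± 0.08 (SD, n = 3), and that of the summed FOS family to the summed JUN family from -1.01 ± 0.07 to -0.61 ± 0.11. Per kilobase, none of these 4 ratios overlapped between strains. For Fos to Fosl2 and Fosb to Fosl2 this follows from the counts above, in which numerator and denominator moved oppositely without overlap. Their non-overlap and permutation p are thus no further result. The family ratio depends on the division by exon length: on counts not divided by length, the difference was 0.03 in place of 0.39 (two-sided exact permutation p = 0.8), whereas the differences of the other 3 ratios are the same on both scales. Per kilobase, each gave p = 0.1 in the two-sided exact permutation test, the smallest value that 3 against 3 libraries allow, and 0.1 after adjustment over the 4, so that none can pass 0.05 in this design.

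**Figure D4:**
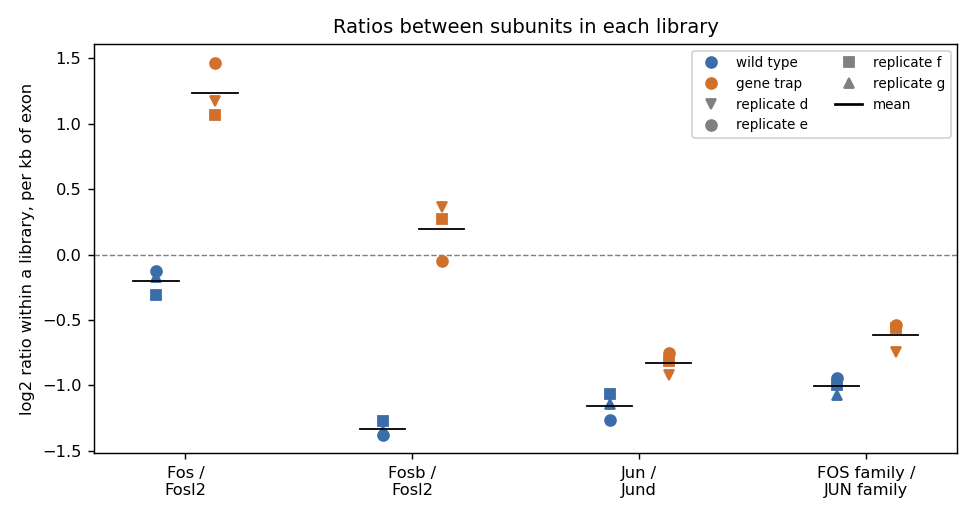
Log2 ratio between subunits within each library, per kilobase of exon (vertical axis), for 4 ratios, with WT in blue, UtyGT in orange, 1 symbol per replicate letter and lines for the means. Fos to Fosl2 lies at -0.31 to -0.13 in WT and at 1.07 to 1.47 in UtyGT. These are on opposite sides of 0 on this scale, which depends on the division by exon length.

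Exon bases are shared with a gene on the other strand for 4 subunits, where reads could be assigned to either gene if strand were not used. Libraries were made with a stranded kit, but whether the counting used strand is not given. Gm11175 lies wholly inside the exon of Jund, all 877 of its bases, and still had reads: 28.6, 26.2 and 21.6 normalized counts in WT e, f and g and 87.3, 77.3 and 78.0 in UtyGT d, e and f. It came to 0.724% to 0.959% of Jund in WT and 2.05% to 2.39% in UtyGT, and rose by 1.64 ± 0.20 (log2, SE, limma adjusted p = 0.000722). Ccdc85b, which shares 1163 of its 4715 exon bases with Fosl1, went from 48.0 ± 13.9 to 92.2 ± 1.60 (0.96 ± 0.21, limma adjusted p = 0.0143). Prdx2, a peroxiredoxin gene that shares 173 bases with Junb, went from 3023 ± 96.0 to 3706 ± 331 (0.29 ± 0.07, limma adjusted p = 0.0286). Junos, which shares 232 bases with Jun, did not pass (18.2 ± 2.68 and 15.7 ± 6.34, adjusted p = 0.671). The part of shared bases in the values of Jund, Fosl1, Junb and Jun was not tested.

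The genes that work with these subunits were described in 4 lists, by counts and medians beside the median of all tested genes (0.00 on the log2 scale). The share of tested genes that passed in either direction was 17.6%, 18.8%, 27.8% and 37.5% in the lists below, in that order, against 10.7% of all genes and 85.7% of the subunits. The first holds other bZIP genes whose proteins can pair with FOS or JUN. Of its 20 genes, 17 were tested, of which 1 rose, 2 fell and 14 did not pass, with a median of -0.05. Atf3, a stress-induced gene whose protein pairs with JUN, had 4622, 4669 and 4687 normalized counts in WT e, f and g and 8323, 9476 and 5984 in UtyGT d, e and f. It rose by 0.74 ± 0.13 (log2, SE, limma adjusted p = 0.00484), all UtyGT libraries being above WT. Maf, a large MAF factor, fell from 403 to 262 on average (-0.62 ± 0.10, limma adjusted p = 0.00424), and Creb1, which encodes a factor that binds TGACG-containing sites, from 900 to 718 (-0.33 ± 0.09, limma adjusted p = 0.0331). Creb1 lost its call when 4 of the 6 libraries were left out in turn, with adjusted p up to 0.153.

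The second list holds MAP kinases and the early transcription regulators through which AP-1 genes are switched on. Of 35 genes, 32 were tested, of which 1 rose, 5 fell and 26 did not pass, with a median of -0.02. Map2k3, which encodes one of the kinases that activate p38, rose by 0.35 ± 0.08 (limma adjusted p = 0.0204). Genes that fell included Ep300 (-0.35) and Crebbp (-0.32), encoding the related histone acetyltransferases p300 and CBP, Srf (-0.35), encoding the factor that binds the CArG box, and Rps6ka3 (-0.30), encoding a ribosomal S6 kinase. Srf, for example, had 3817, 3576 and 3612 normalized counts in WT e, f and g and 2719, 3120 and 2834 in UtyGT d, e and f. Ep300 kept its call without each of the libraries in turn, and Map2k3, Crebbp, Rps6ka3 and Srf lost theirs without WT e or without UtyGT d. The count of falls ranged from 1 without WT e or without UtyGT d to 2 without WT f and 8 without UtyGT e, and that of rises from 0 without WT e, WT f or UtyGT d to 3 without UtyGT e. Over all genes, falls numbered 244 without WT e, 370 without UtyGT d, 233 without WT f and 1226 without UtyGT e. Rises over all genes in those fits numbered 167, 279, 196 and 999.

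The third list holds genes involved in the turnover of AP-1 transcripts and proteins, in either direction. Of 19 genes, 18 were tested, of which 4 rose, 1 fell and 13 did not pass, with a median of -0.04. Trib1 (0.54 ± 0.08, limma adjusted p = 0.00188) and Trib2 (0.45 ± 0.11, 0.0269), which encode scaffolds of the COP1 ubiquitin ligase, rose. Fbxw7, which encodes a ubiquitin ligase subunit that recognises JUN (0.41 ± 0.07, limma adjusted p = 0.00378), and Zfp36, encoding tristetraprolin, a protein that binds AU-rich transcripts such as that of Fos and speeds their decay (0.41 ± 0.07, limma adjusted p = 0.00474), rose as well. Zfp36 had 1922, 2215 and 2076 normalized counts in WT e, f and g and 2878, 2730 and 2656 in UtyGT d, e and f. Cnot7, a deadenylase gene, fell by 0.30 on the log2 scale (limma adjusted p = 0.0262), a call that was lost without WT e, WT f, UtyGT d or UtyGT f. The call of Trib2 was lost without WT f, WT g, UtyGT d or UtyGT f, while those of Trib1, Fbxw7 and Zfp36 were kept without each library in turn.

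The fourth list holds genes known as AP-1 targets in various cell types. Of 40 genes, 32 were tested, of which 5 rose, 7 fell and 20 did not pass, with a median of -0.16. Among rises, the smallest p belonged to Lmna, encoding nuclear lamins A and C (0.72 ± 0.09), Dusp1, encoding a phosphatase that switches off MAP kinases (0.56 ± 0.09), Ccnd1, encoding cyclin D1 (0.45 ± 0.09), and Itga5, encoding an integrin subunit for fibronectin (0.28 ± 0.06). Their limma adjusted p-values were 0.000990, 0.00407, 0.0110 and 0.0203. Dusp1 had 1049, 1039 and 1114 normalized counts in WT e, f and g and 1721, 1342 and 1680 in UtyGT d, e and f. Among falls, the smallest p belonged to Ccl2, a chemokine gene (-1.14 ± 0.15), Mt2, a metallothionein gene (-0.87 ± 0.11), Lif, a cytokine gene of the interleukin-6 family (-1.97 ± 0.27), and Csf1, a macrophage growth factor gene (-0.60 ± 0.10). Their limma adjusted p-values were 0.000861, 0.000861, 0.00135 and 0.00370. Lif had 80.0, 92.4 and 88.7 normalized counts in WT e, f and g and 34.4, 16.4 and 17.2 in UtyGT d, e and f. The call of Itga5 was lost without WT e, WT f or UtyGT d and that of Ccnd1 without WT e, while the other 6 named targets kept theirs. The number of rises ranged from 2 without WT e to 8 without UtyGT e, where 167 and 999 of all genes rose.

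**Figure D5:**
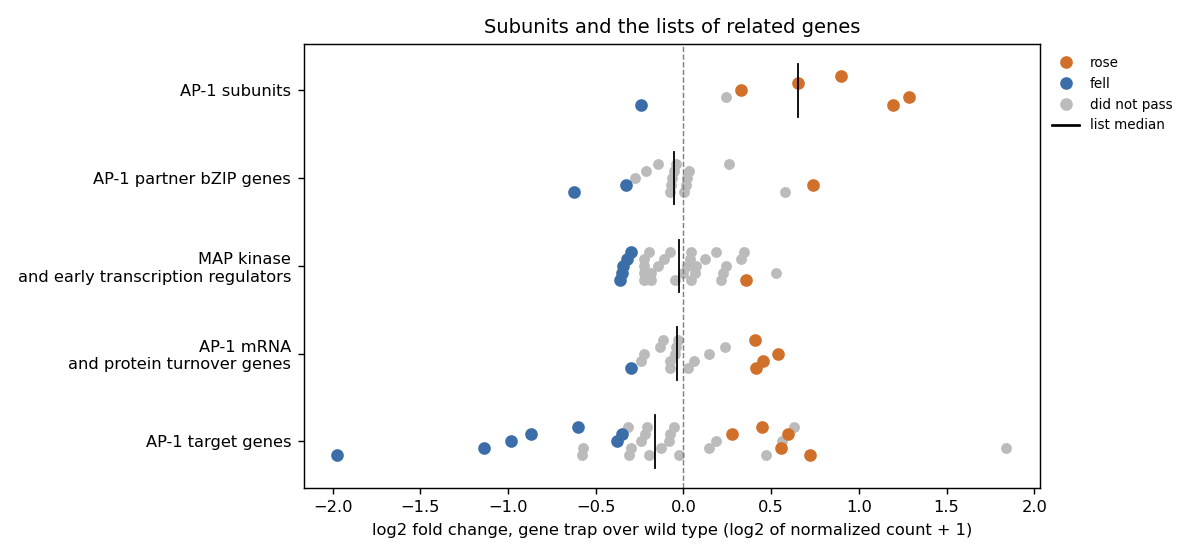
Log2 fold change, UtyGT over WT (horizontal axis), of every tested gene of the subunits and of the 4 lists, with genes that rose in orange, that fell in blue and that did not pass in gray, and a line at each list's median. The subunits have their median at 0.65, while the medians of the lists lie between -0.16 and -0.02.

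The genes whose pattern over the 6 libraries was most like that of each subunit were found by Pearson correlation. They were sought among 10281 genes with a mean of at least 50, leaving out predicted, clone and pseudogene names. The correlations describe these libraries only, since the genes compared share size factors and strain. Many other genes also correlated highly with each subunit, so nearness does not single out the genes named. Egr1, an immediate early zinc finger gene, was nearest to Fos (r = 0.999), with 8961, 8992 and 8910 normalized counts in WT e, f and g and 16092, 19084 and 15658 in UtyGT d, e and f. It had the same order of UtyGT libraries as Fos, highest in e and lowest in f. Shared orders, here and below, are favoured by the choice of genes on correlation over these libraries. Rpl26 (0.994) and Abcf3 (0.993) came next. Nearest to Fosb were Arhgef10 (0.996), Tubb2a (0.995) and Plk2 (0.992), each lowest of the UtyGT libraries in e, as Fosb was. Nearest to Fosl1 were Dusp8 (0.998), Bag5 and Thrap3, and to Fosl2 Fchsd2 (0.999), Zfhx2 and Lrp8. Nearest to Jun was Gadd45b, a stress-induced gene (0.998), with 584, 668 and 680 normalized counts in WT and 1217, 1139 and 978 in UtyGT, followed by Ip6k3 and Tmem51. Nearest to Junb were Pheta1 (0.999), Trafd1 and Otud5, and to Jund Mydgf (0.994), Pdcd4 and Fancl.

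Without UtyGT f, the log2 fold changes were 1.29 for Fos, 1.25 for Fosb, 0.83 for Fosl1, -0.24 for Fosl2, 0.73 for Jun, 0.26 for Junb and 0.41 for Jund, with the same calls (limma adjusted p = 0.0495 for Fosl2), where 3.81% of genes rose and 5.05% fell. Mitochondrial transcripts took 46.9% to 54.7% of reads in WT and 39.8% to 44.8% in UtyGT. With libraries scaled to nuclear-encoded reads, the 7 calls were the same.

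All 10 cardiomyocyte markers, such as Myh6 and Tnnt2, had reads in every library, with a summed level of 1767450 to 1841590 normalized counts in WT and 1872610 to 1933440 in UtyGT. Of the 10, 1 rose (Myl3) and 0 fell, where 4.55% of all genes rose and 6.12% fell. Markers of other cells were present as well, and some moved with the strain: 5 of 10 fibroblast markers rose (sum 5605 to 8484 in WT, 7667 to 10869 in UtyGT), 3 of 10 endothelial markers (15164 to 17335 and 13609 to 22249), 4 of 10 smooth muscle and pericyte markers (61114 to 61876 and 52873 to 59319, most of it Des, which cardiomyocytes also express) and 2 of 9 myeloid markers tested (304 to 471 and 424 to 530). None of these was at 0 in any library. Mmp2 is both a fibroblast marker and in the list of targets. In these bulk samples, fewer cells of a type and less RNA per cell cannot be told apart. UtyGT e had the lowest fibroblast and endothelial sums of the UtyGT libraries, the first within and the second below the range of WT. Such sums weigh abundant genes most. Its median log2 deviation from the WT mean was 0.19 for fibroblast, 0.01 for endothelial, 0.15 for smooth muscle and pericyte and 0.45 for myeloid markers. The highest WT library had 0.27, 0.11, 0.11 and 0.38, in that order.

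Atrial markers differed more, among them Nppa, which is also in the list of targets. Of 6, 4 rose and Bmp10 fell, against the same 4.55% and 6.12% of all genes, with sums of 914 to 1118 in WT and 1148, 10039 and 6201 in UtyGT d, e and f. Bmp10 was at 0 in UtyGT d and e and at 69.9 to 119 normalized counts in WT. UtyGT d had an atrial sum close to that of WT, with Nppa (605 against 549 to 658 in WT) a large part of it. Its Myl7 (123 against 47.5 to 66.3), Myl4 (319 against 162 to 214), Sln (55.6 against 26.2 to 42.3) and Mybphl (46.3 against 15.0 to 28.5) were above WT. This library had the highest Fosb (5713), Jun (4314), Junb (4134) and Jund (4263) of all 6 libraries and 3777 counts of Fos. Without UtyGT e, the log2 fold changes were 1.08 for Fos, 1.40 for Fosb, 0.96 for Fosl1, -0.25 for Fosl2, 0.64 for Jun, 0.26 for Junb and 0.35 for Jund, again with the same calls. Of all genes, 999 then rose and 1226 fell. The part of cell composition in the changes of the subunits was not tested.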

How the data were processed

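RNA of cardiomyocytes from 3 isolations each of WT and UtyGT hearts was measured by stranded RNA-seq after depletion of ribosomal RNA, with single reads. According to the submitters' processing notes and the study's methods, the authors used CASAVA 1.4, STAR 2.5.1b on GRCm38, featureCounts 1.6.0 on Ensembl genes and DESeq2 1.22.2. The sources used here do not state how strand and multi-mapping reads were handled. Deposited signal values are read counts that the authors divided by a size factor per library. In each library 100% of values were whole multiples of 1 step (tolerance 0.001), from which reads were recovered. The deposited table also contains a comparison by the authors (log2 fold changes, Wald score, p-value and adjusted p-value), which was not used.

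Values were tested with limma 3.58.1 in R 4.3.3 (variance trend, two-sided) on log2(normalized count + 1), a scale that understates changes of low genes, for genes with a mean of at least 10. edgeR 4.0.16 and DESeq2 1.42.0 on recovered reads were alternatives, with other pseudocounts, filters, scalings and single libraries left out. The test was checked on simulated counts. No library was a copy of another of its strain, the chi-square over degrees of freedom of their counts being 9.91 to 50.3. Nothing states that replicates of a strain came from separate animals beyond separate isolations, so p-values measure the spread between these libraries. Exon lengths and coordinates are from GENCODE M21, which held 54165 of 54232 gene identifiers, and upstream sequences from RefSeq (GRCm38.p6, 6 of the 7 genes matched). Rows without a gene symbol (123, with identifiers) stayed in and held 0.00308% to 0.00378% of reads.

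The subunits, the lists and the tests were chosen with earlier results of these data known. The genes named were all subunits, genes that overlap them, the 3 genes most alike each subunit, and from each list every gene past the threshold or, where more than 8 passed, the 4 rises and 4 falls with the smallest adjusted p. A gene of the lists that this rule selects is not reported here.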

Additional observations from a re-analysis of the deposited data

How the results depend on the processing

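Over 21 alternatives, Fos, Fosb and Fosl1 kept their direction and call in all 21, Jun and Junb in 20, Jund in 14 and Fosl2 in 13, and no result changed direction. Without a variance trend, where 0.548% of genes rose and 0.505% fell, 3 subunits rose and 0 fell. Jun had 0.65 (adjusted p = 0.0502), Jund 0.33 (0.157) and Fosl2 -0.24 (0.132). The 4 lists then had 0 rises each and 0 falls, except 1 fall among targets. Fosl2 was -0.17 with quantile normalization (adjusted p = 0.107), so that 0 subunits fell, where 644 of all genes rose and 743 fell. At a threshold of 0.01, Fosl2 (-0.24) and Jund (0.33) were not past it and again 0 fell. Of all 13875 genes, 137 rose and 229 fell at that threshold. Without a filter, which shifts the median of all genes by 0.11, Junb passed at 0.25 (adjusted p = 0.0355). In that fit, 1004 of 34219 genes rose and 1045 fell. With DESeq2, 4 partner genes fell, where 6.34% of all genes did.

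Leaving out each library in turn gave 4 to 5 subunits that rose and 0 to 1 that fell. Over all tested genes, 167 to 999 rose and 233 to 1226 fell in these fits. The fold changes ranged from 1.08 to 1.29 for Fos, 1.20 to 1.40 for Fosb, 0.82 to 1.01 for Fosl1, -0.28 to -0.20 for Fosl2, 0.59 to 0.73 for Jun, 0.11 to 0.32 for Junb and 0.22 to 0.41 for Jund. The falls among partner genes ranged from 1 to 3. MAP kinase and regulator genes had 0 to 3 rises and 1 to 8 falls, turnover genes 0 to 1 falls and target genes 2 to 8 rises. The cause of these changes was not tested.

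Letters e and f occur in both strains, which is too few pairs to establish pairing. The deviations of same-letter libraries correlated at 0.11 (e) and 0.15 (f), above those of all other cross-strain pairs (-0.15 to 0.08). With the replicate letter as a block, Fosl2 was -0.25 (adjusted p = 0.0556) and Jund 0.23 (0.0887), so that 0 subunits fell, and 635 genes rose and 747 fell in all. Without division by exon length, the FOS to JUN family ratio differed by 0.03 in place of 0.39 (exact permutation p = 0.8). With 3 libraries per strain, ratios cannot reach p under 0.1. Fosl1, at 139 reads in its shallowest library, is the subunit that depth limits most.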
